A study of Mus musculus with 8 samples.

Results

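The genes examined here make or control cholesterol: Hmgcs1, Idi1, Fdps, Fdft1, Sqle, Lss and Cyp51 encode enzymes of the pathway, and Insig1 encodes a protein that restrains it. These 8 genes were chosen by symbol, with earlier results of these data known, out of 16309 genes with a named probe on the array. Probes were named through the transcript accession that the array gives for each of them. Of the 8 genes, 7 had a probe, with 13 probes in all, and all 13 lay well above background on 8 of 8 arrays. No probe was matched to Idi1, so it has no value below.

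RNA was profiled from the mucosa of 2 sites, the rectum and the middle colon, of male mice that either lacked interleukin 18, a cytokine (IL18ko), or were wild type (WT). In both genotypes litters of 5 brothers shared a cage until 10 to 12 weeks of age. The stress animals were then housed alone, as a psychological stress, while the control animals were killed at the time their brothers were separated. The labels disagree on how long isolation lasted: the design text says 8 days and the protocol says 16. Because the controls were killed first, housing, age and the day of collection cannot be told apart. Rectum tissue was the last 7 mm before the anus, and colon tissue lay between 2.5 and 3.5 cm from the ileocecum. Each array was hybridised with 1 pool of RNA from 5 mice, so that the 8 groups were IL18ko stress, IL18ko control, WT stress and WT control rectum, and the same in colon, with no replicate pool of any of them. Whether the rectum pool and the colon pool of a group drew on the same animals is not in the labels, nor is how the knockout allele was made or on which strain.

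Cholesterol is built from acetyl-CoA. Hmgcs1, the cytosolic HMG-CoA synthase, acts on the way to mevalonate. Idi1 and Fdps then build the isoprenoid farnesyl diphosphate, Fdft1 joins this into squalene, Sqle and Lss turn squalene into lanosterol, and Cyp51 begins the trimming of lanosterol towards cholesterol. When sterols in the membrane of the endoplasmic reticulum are low, the transcription factor SREBP-2 (gene Srebf2) is carried to the Golgi by its escort Scap, cut free there and switches on these genes together. Insig1 holds Scap back when sterols are plentiful, and is itself a target of SREBP. The intestine makes cholesterol as well as taking it up from bile and food.

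SREBP, with the partner factors NF-Y and Sp1, is known to act close to the start sites of these genes, and the stretch of 250 bases before the start is therefore shown for the genes that differed between the tissues and whose start is in the table used. The sequences are from RefSeq on the build GRCm38.p6 and are written from the side of the gene. Capitals mark the letters CCAAT, the NF-Y motif, or its other strand ATTGG, and the SREBP motif TCACNCCAC.
Hmgcs1, chr13:119690101-119690350, plus strand: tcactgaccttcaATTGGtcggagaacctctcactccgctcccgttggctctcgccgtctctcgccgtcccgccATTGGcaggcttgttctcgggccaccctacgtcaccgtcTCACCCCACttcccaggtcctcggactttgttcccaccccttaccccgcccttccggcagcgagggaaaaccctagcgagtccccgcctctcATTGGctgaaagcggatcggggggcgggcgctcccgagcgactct
Lss, chr10:76531355-76531604, plus strand: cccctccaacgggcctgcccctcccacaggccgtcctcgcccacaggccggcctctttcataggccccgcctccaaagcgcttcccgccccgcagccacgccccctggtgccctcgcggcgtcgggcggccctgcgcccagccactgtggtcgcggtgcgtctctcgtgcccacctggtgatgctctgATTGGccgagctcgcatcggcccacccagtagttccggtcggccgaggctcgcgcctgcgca
Cyp51, chr5:4104698-4104947, minus strand: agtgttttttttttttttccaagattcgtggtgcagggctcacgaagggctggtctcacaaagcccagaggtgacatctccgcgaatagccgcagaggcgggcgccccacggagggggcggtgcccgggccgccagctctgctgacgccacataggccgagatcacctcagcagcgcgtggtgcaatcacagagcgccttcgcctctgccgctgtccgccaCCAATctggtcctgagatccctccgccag
Insig1, chr5:28071162-28071411, plus strand: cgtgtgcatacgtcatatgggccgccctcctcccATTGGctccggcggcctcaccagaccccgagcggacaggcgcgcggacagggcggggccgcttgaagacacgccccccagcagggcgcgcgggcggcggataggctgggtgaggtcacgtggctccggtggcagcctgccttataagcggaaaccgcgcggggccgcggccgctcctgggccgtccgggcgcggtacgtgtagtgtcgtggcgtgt

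Both strands were searched, and no matches of different motifs overlapped. Positions are those of the leftmost base of a match, with -1 the base before the start. TCACNCCAC was found in the Hmgcs1 stretch at -137 and in none of the other 3 shown, against 1.05% of the 32851 windows of that length in the table. CCAAT was found in all 4, at -237, -176 and -45 in Hmgcs1, at -62 in Lss, at -29 in Cyp51 and at -216 in Insig1, against 33.8% of windows. The Sp1 letters GGGCGG were also in all 4, against 32.7% of windows, and the E-box CACGTG in Insig1 alone, at -101, against 6.02%. The Idi1 stretch, not shown because the gene has no value here, held CCAAT and GGGCGG and neither of the other motifs. A match of letters is a description of the sequence and no evidence of binding. A site with letters other than those searched would not be found, so no match is no evidence that a site is absent. Stretches for Fdps, Fdft1 and Sqle were not analysed here.

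Levels are log2 signals with the 75th percentile of the same array set to 0; they compare arrays for 1 probe and not 1 gene with another. A gene with several probes is represented by the brightest. Differences between groups were taken within matched pairs of arrays, which differ in 1 factor and share the others, and tested with limma over 26265 probes. The error after ± is the standard error (SE) from limma, n = 4 pairs, and a gene was called where the p adjusted by Benjamini-Hochberg lay under 0.05. No exact test over 4 pairs can go below 0.125.

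The arrays held 43379 spots each, of which 62.2% to 66.4% lay well above background and 0 were saturated. Il18 was well above background on the 4 WT arrays and on 0 of the 4 IL18ko arrays. All rectum arrays lay on 1 slide and all colon arrays on the other, so that tissue and slide cannot be told apart, while genotype and stress pairs were within a slide. Each combination of genotype and housing had its own place on both slides, so place and mice cannot be told apart. The rectum array of WT stress mice stood apart from the rest. For 3828 genes the gap between the brightest and the next probe was compared with its mean over the other arrays of the same tissue. The SD of this deviation over genes was 0.51 on that array, against 0.19 to 0.30 on the other 7. Its 75th percentile was also the lowest, at 578 intensity units against 663 to 818 on the others. The calls on tissue, genotype and stress are also given without the pair that holds it.

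The rectum held less RNA of 6 of the 7 measured genes than the middle colon. Hmgcs1, Fdps, Sqle, Lss, Cyp51 and Insig1 fell by 0.38 to 1.11 log2 units, which is 1.30-fold to 2.16-fold, and each was lower in 4 of 4 pairs, as were 23% of the 12716 tested genes. For these 6 genes every rectum array lay below every colon array on the brightest probe, a pattern that 16.2% of the tested genes showed in this direction. Fdft1 did not pass the test. Of all tested genes, 15.8% were called lower in rectum and 14.1% higher, and the median difference of the 7 genes was -0.72 against 0.03 over all genes. In a tissue sample fewer cells of a type and less RNA per cell cannot be told apart.

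**Figure D1:**
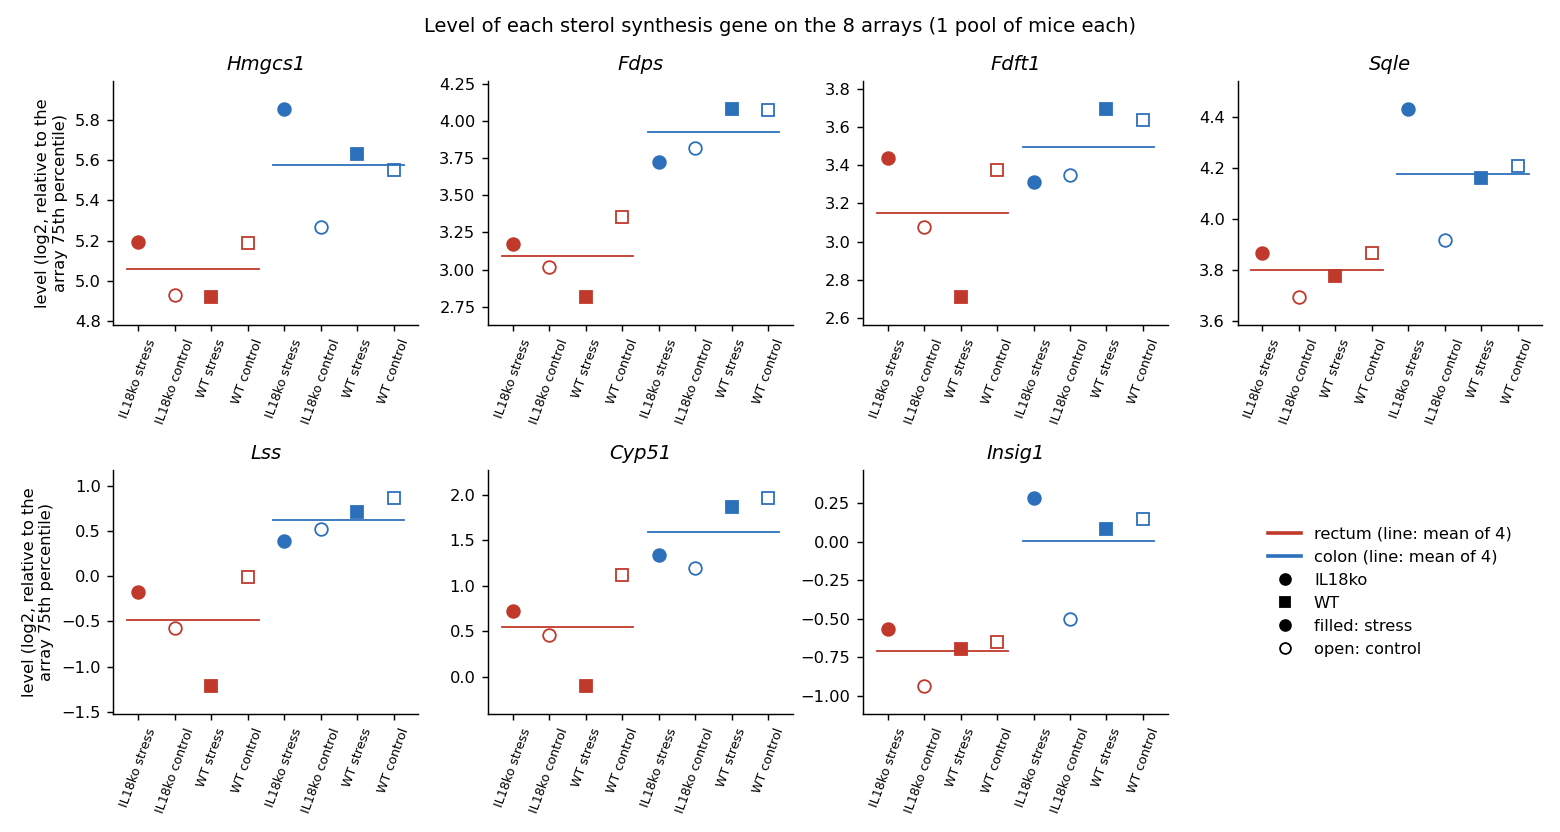
Level of each of the 7 measured sterol synthesis genes (log2, relative to the 75th percentile of the array; vertical axes differ) on the 8 arrays, each 1 pool of mice, with rectum in red at left and colon in blue at right; circles are IL18ko, squares WT, filled symbols stress, open symbols control, and lines the mean of 4 arrays. In all genes but Fdft1 every rectum array lies below every colon array.

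Hmgcs1 (chromosome 13), which makes HMG-CoA, had levels of 5.19 in IL18ko stress, 4.93 in IL18ko control, 4.92 in WT stress and 5.19 in WT control rectum, against 5.85, 5.27, 5.63 and 5.55 in the same order in colon. The highest rectum array was below the lowest colon array, by a margin that is small beside the spread within colon. It fell by 0.52 ± 0.105, or 1.43-fold (adjusted p = 0.0134).

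Fdps (chromosome 3), the synthase of farnesyl diphosphate, had 3.17, 3.02, 2.82 and 3.36 on the rectum arrays of IL18ko stress, IL18ko control, WT stress and WT control mice, against 3.72, 3.82, 4.08 and 4.08 on the colon arrays in that order. The groups were well apart, and the WT stress pair differed most. Fdps fell by 0.83 ± 0.13, or 1.78-fold (adjusted p = 0.0052).

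Fdft1 (chromosome 14), the squalene synthase, had 3.44, 3.08, 2.71 and 3.37 in rectum, against 3.31, 3.35, 3.69 and 3.64 in colon, in the same order of mice. Rectum and colon overlapped: the IL18ko stress pair was higher in rectum, and the lowest value by far was that of the WT stress rectum. Its difference was -0.35 ± 0.18 (adjusted p = 0.198), with a 95% confidence interval from -0.78 to 0.08. Without the WT stress pair it was -0.14 (adjusted p = 0.31, n = 3 pairs, limma).

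Sqle (chromosome 15), the squalene epoxidase, had 3.87, 3.69, 3.78 and 3.87 in rectum, against 4.43, 3.92, 4.16 and 4.21 in colon. The rectum arrays lay close to each other, and the IL18ko control colon was only just above them. Sqle fell by 0.38 ± 0.097, or 1.30-fold (adjusted p = 0.0309), and this call is lost under median centring of the arrays (adjusted p = 0.0582) and without the variance trend of limma (adjusted p = 0.0586).

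Lss (chromosome 10), the lanosterol synthase, had -0.17, -0.57, -1.21 and -0.0037 in rectum, against 0.38, 0.53, 0.71 and 0.87 in colon. Among the 7 genes its difference was the largest. Lss fell by 1.11 ± 0.22, or 2.16-fold (adjusted p = 0.0121); without the WT stress pair it fell by 0.84 (adjusted p = 0.00134, n = 3 pairs, limma).

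Cyp51 (chromosome 5), the lanosterol demethylase, had 0.72, 0.46, -0.095 and 1.12 in rectum, against 1.33, 1.20, 1.86 and 1.96 in colon. The WT stress rectum was again the lowest array, and the WT control rectum nearly reached the IL18ko control colon. Cyp51 fell by 1.04 ± 0.23, or 2.05-fold (adjusted p = 0.018), and without the WT stress pair it fell by 0.73 (adjusted p = 0.00066, n = 3 pairs, limma).

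Insig1 (chromosome 5), the restraint on SREBP release, had -0.56, -0.93, -0.70 and -0.65 in rectum, against 0.29, -0.50, 0.085 and 0.15 in colon. Here the IL18ko control arrays were the lowest of both tissues, and the WT stress rectum did not stand out. Insig1 fell by 0.72 ± 0.12, or 1.64-fold (adjusted p = 0.00558).

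Leaving out the WT stress pair left the same 6 genes called, with 23.2% of all genes then called lower and 21.6% higher. Leaving out the IL18ko control pair left 2 of the 7 genes called, and leaving out the WT control pair left 3. Without the IL18ko control pair, Hmgcs1 (adjusted p = 0.052), Lss (0.055) and Cyp51 (0.0515) lay just over the threshold and Sqle at 0.106, while their differences were -0.58, -1.11, -1.14 and -0.43. Without the WT control pair, Hmgcs1 (0.0589), Sqle (0.143) and Cyp51 (0.0677) missed it, and without the IL18ko stress pair Hmgcs1 (0.0501) and Sqle (0.115) did. Fdps and Insig1 were called in all 14 settings run.

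The other probes of the genes gave the same direction between tissues. Rectum and colon arrays overlapped on the additional probes of Hmgcs1, Fdft1 and Cyp51, and did not on those of Lss and Insig1. The additional probes of Lss (-1.11, adjusted p = 0.0316), Insig1 (-0.72, adjusted p = 0.0069) and Cyp51 (-0.48 and -0.94, adjusted p = 0.0243 and 0.0351) were called lower. The additional probe of Hmgcs1 was not called, at -0.49 ± 0.25 (adjusted p = 0.190), and was higher in rectum in 1 of 4 pairs. That of Fdft1 gave -0.22 (adjusted p = 0.479). Probes of 1 gene share their RNA samples and are no independent measurements of the tissues. The middle probe of Cyp51 differed from the other 2 on the WT stress rectum array, where it had its highest rectum value, at 0.26, while the brightest and the dimmest had their lowest, at -0.095 and -1.71.

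**Figure D2:**
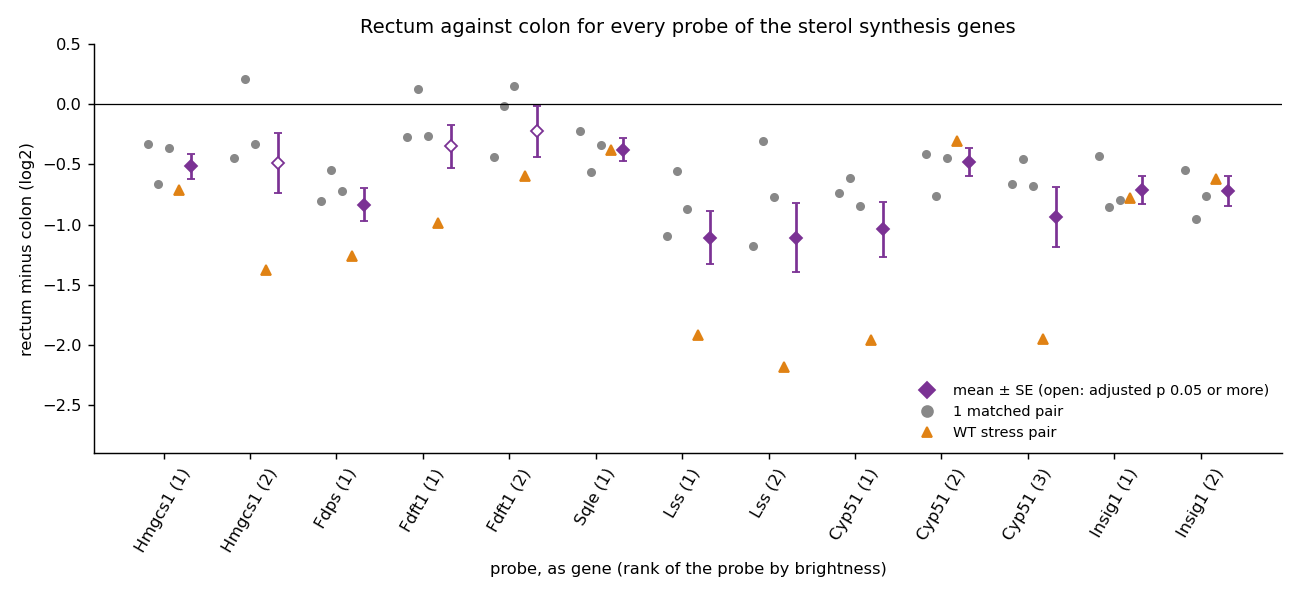
Difference rectum minus colon (log2) for each of the 13 probes of the sterol synthesis genes, named by gene with the rank of the probe by brightness; small symbols are the 4 matched pairs, with the WT stress pair as an orange triangle, and diamonds the mean ± SE from limma, filled where called. All 13 means lie below 0, and the WT stress pair is the lowest pair for both probes of Hmgcs1, Fdft1 and Lss, for Fdps and for probes 1 and 3 of Cyp51.

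The pathway's other enzymes were tested as a group of their own. Of 14 measured, 0 were called higher (against 14.1% of all tested genes), 2 lower (against 15.8%) and 12 not, with a median difference of -0.17. The 2 were Hsd17b7, a reductase of late sterol synthesis (-0.67 ± 0.19, adjusted p = 0.046), and Mvd, which makes isopentenyl diphosphate (-0.48 ± 0.14, adjusted p = 0.0471), both named after their values were seen. Dhcr7, a reductase at the end of the pathway, was not called (0.21) and is likewise named after its values were seen. Without the WT stress pair 5 of the 14 were called lower, against 23.2% of all genes. They were Hsd17b7 at -0.86, Msmo1 at -0.46, Tm7sf2 at -0.35, Ggps1 at -0.34 and Mvd at -0.33. The 3 that joined are also named after their values were seen.

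**Figure D3:**
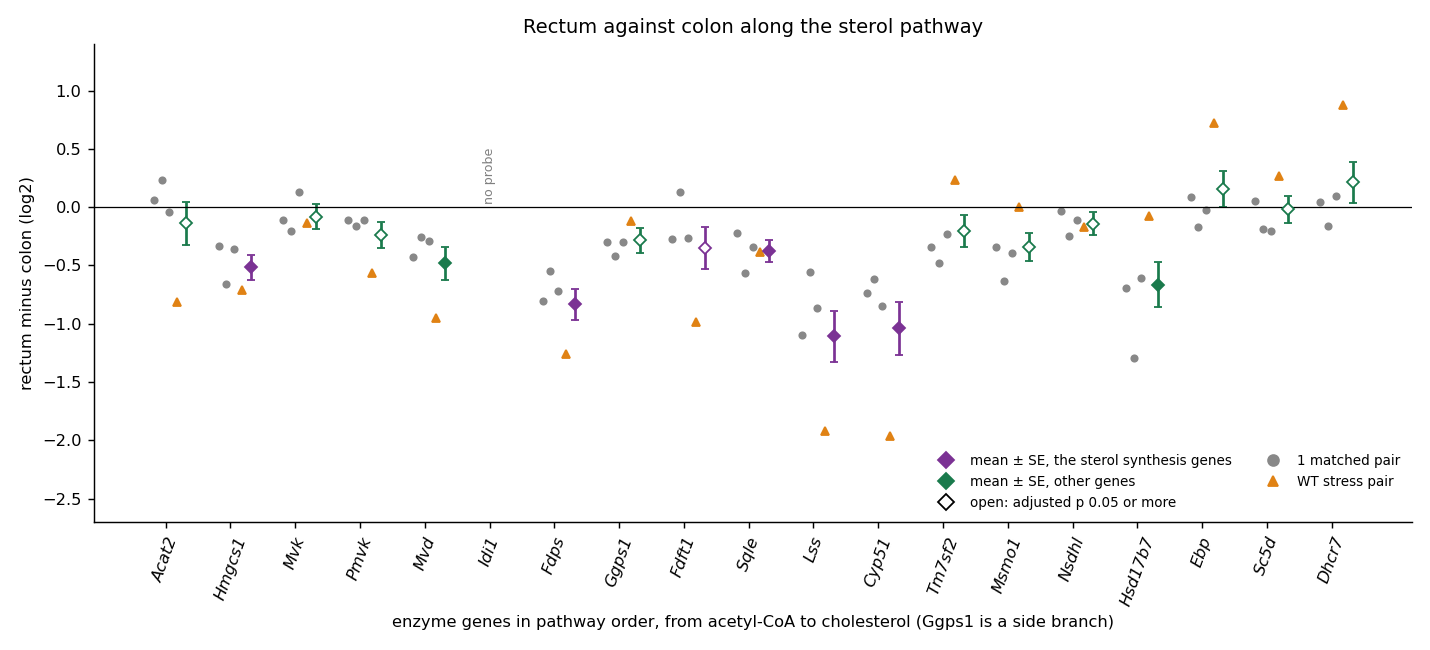
Difference rectum minus colon (log2) of the pathway's enzyme genes in the order of their reactions; small symbols are the 4 matched pairs (orange triangle, WT stress), diamonds the mean ± SE from limma, purple for the sterol synthesis genes examined here and green for other enzymes, filled where called. Lss and Cyp51 have the lowest means, and the last 3 genes on the right have open diamonds between -0.017 and 0.21.

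Genes that sense and take up sterols included several that were higher in rectum. Of 12 tested genes of SREBP control and uptake, 4 were called higher in rectum (against 14.1% of all tested genes), 0 lower (against 15.8%) and 8 not. Srebf1, which encodes SREBP-1, the form best known for fatty acid genes, rose by 0.77 ± 0.12 (adjusted p = 0.00464) and was higher in 4 of 4 pairs. Mylip, a ubiquitin ligase that limits sterol uptake, rose by 1.45 ± 0.13 (adjusted p = 0.000584). The other 2 were the lysosomal cholesterol carriers Npc1 (0.49, adjusted p = 0.046) and Npc2 (1.01, adjusted p = 0.00123), named after their values were seen. Srebf2 was at 0.35 ± 0.11 (adjusted p = 0.0572), higher in 4 of 4 pairs and not called. Insig2, a relative of Insig1 with the same role, was at -0.21 ± 0.16 (adjusted p = 0.367). Without the WT stress pair 5 of the 12 were called higher and 2 lower, against 21.6% and 23.2% of all genes. Srebf2 was then called at 0.28 (adjusted p = 0.0463, limma) and Insig2 at -0.40 (adjusted p = 0.00746). Stard4, a cytosolic sterol carrier named after its values were seen, was called at -0.71 (adjusted p = 0.000786).

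Of 11 genes of sterol export, esterification and oxysterols, 7 were called higher in rectum and 0 lower, with a median of 0.73. Of all tested genes 14.1% were called higher and 15.8% lower. Abcg5 and Abcg8, whose products form the pump that returns sterols to the gut lumen, were both called higher. Abcg5 rose by 4.63 ± 0.27 (24.8-fold, adjusted p = 9.34e-05). Abcg8 was well above background on 4 of 4 rectum arrays and on 1 of 4 colon arrays, so its colon level was measured on 1 array and no size is given (adjusted p = 0.000349). Cyp27a1, the sterol 27-hydroxylase, rose by 2.62 ± 0.18 (adjusted p = 0.000158) and the exporter Abcg1 by 2.18 ± 0.17 (adjusted p = 0.000299). Without the WT stress pair 8 of the 11 were called higher and 0 lower, against 21.6% and 23.2% of all genes.

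Fatty acid synthesis, measured through 10 genes, had 4 called higher (against 14.1% of all tested genes), 3 lower (against 15.8%) and 3 not. The fatty acid elongase Elovl6 fell by 1.89 ± 0.096 (adjusted p = 5.81e-05) and the malic enzyme Me1 fell by 1.83 ± 0.22 (adjusted p = 0.00171). The desaturase Fads2 rose by 1.39 ± 0.20 (adjusted p = 0.00304). Fads1, named after its values were seen, fell by 0.80, and Acly, Acss2 and Scd2, named likewise, rose by 1.25, 1.04 and 0.81. Acly makes acetyl-CoA in the cytosol, which both pathways use.

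**Figure D4:**
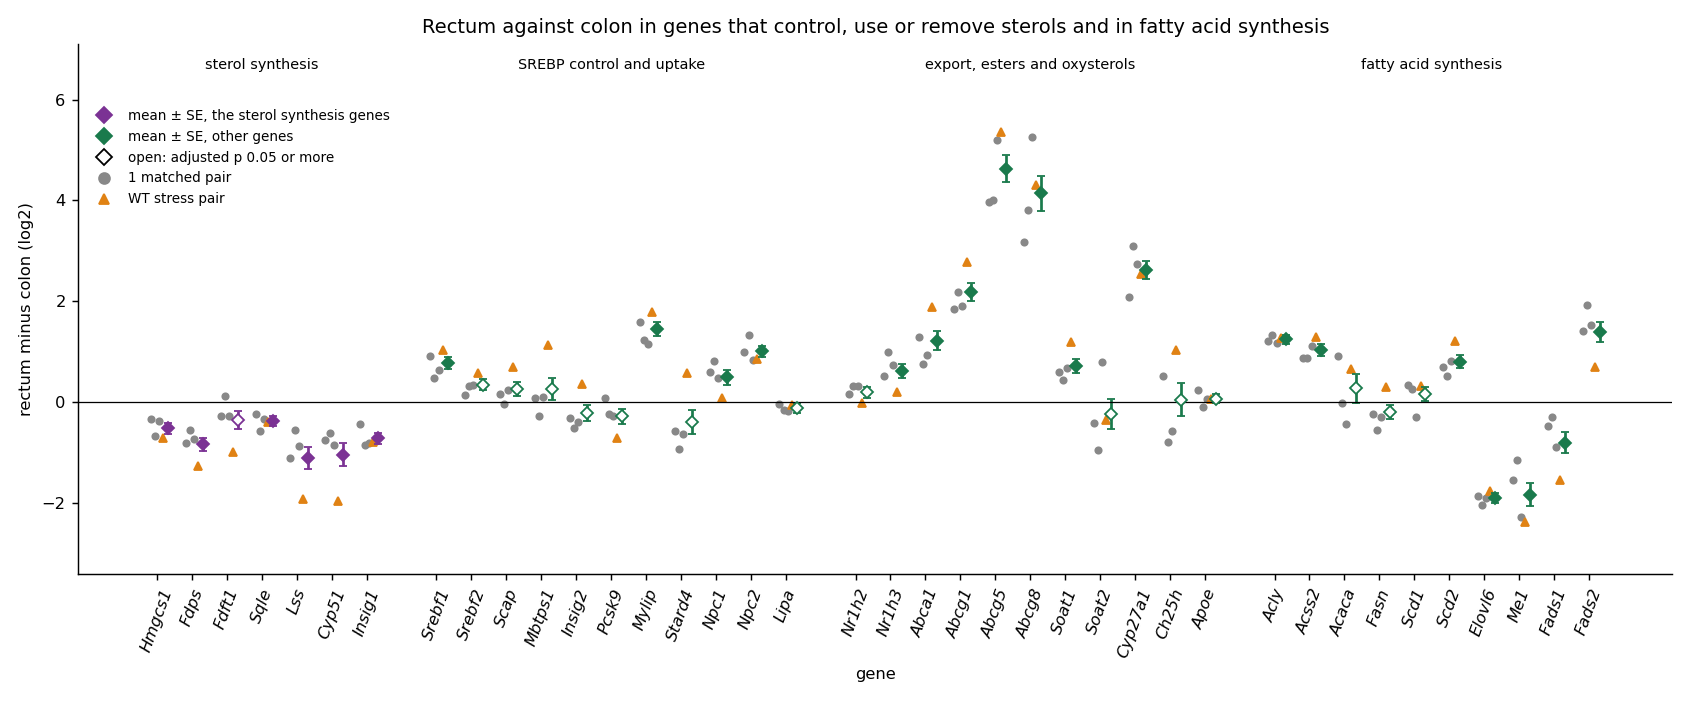
Difference rectum minus colon (log2) of the sterol synthesis genes (purple) and of genes for SREBP control and uptake, for export, esters and oxysterols, and for fatty acid synthesis (green); small symbols are the 4 matched pairs (orange triangle, WT stress) and diamonds the mean ± SE from limma, filled where called. The 6 called sterol synthesis genes lie below 0, the called genes of the 2 middle groups all lie above 0, and those of fatty acid synthesis lie on both sides.

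Markers of other cells also differed between the tissues, and their part in these results was not tested. To be set beside the counts, 15.8% of all tested genes were called lower in rectum and 14.1% higher. Of 13 colon epithelium markers on the array, all lay above background on 8 of 8 arrays, 3 were called higher and 2 lower in rectum, and their summed level was 10.8 to 10.97 in rectum, against 10.78 to 10.99 in colon. Adipocyte markers were lower (8 of 10 called), with a summed level of 4.15 to 5.68 in rectum, against 5.50 to 6.39 in colon. Enteric neuron and glia markers were lower too (5 of 5 tested), at 1.90 to 2.53 in rectum, against 3.78 to 4.11 in colon, with Ret above background on 0 arrays. Proliferation markers were lower in 4 of 11, with summed levels of 6.12 to 6.90 in rectum, against 6.55 to 6.84 in colon. Skeletal muscle markers were higher in 6 of 11, at 2.78 to 7.39 in rectum, against 1.76 to 2.58 in colon. Squamous epithelium markers had 4 higher and 1 lower of 7 tested, at 1.95 to 2.99 in rectum, against 1.87 to 2.30 in colon, with Dsg3 and Ivl above background on 0 arrays. Of the sebaceous and anal gland markers 2 were higher and 1 lower of 4 tested, at 5.71 to 5.96 in rectum, against 5.13 to 5.15 in colon, with Elovl3, Far2 and Mc5r above background on 0 arrays. Of 7 immune markers 1 was lower, at 4.96 to 6.37 in rectum, against 5.15 to 6.03 in colon, and of 8 smooth muscle markers none was called, at 8.86 to 9.38 in rectum, against 9.004 to 9.60 in colon. Without the WT stress pair more markers were called, and of all genes 23.2% were then called lower and 21.6% higher. In that fit 11 of 11 skeletal muscle markers and 6 of 7 squamous markers were higher. Lower were 3 of 7 immune markers and 5 of 11 proliferation markers. Of 13 colon epithelium markers 5 were higher and 3 lower, and of 8 smooth muscle markers 1 was higher and 1 lower. The counts for adipocytes (8 lower), enteric neurons and glia (5 lower) and sebaceous and anal glands (2 higher, 1 lower) did not move.

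The effect of losing Il18 was asked through the 4 IL18ko minus WT differences. None of the 7 genes was called, and neither was any gene of the 4 related groups above; among all genes 0.0472% (6 genes) were called and 17.3% had an unadjusted p under 0.05. The differences lay between -0.29 for Cyp51 and -0.01 for Hmgcs1, with adjusted p from 0.632 to 0.976. The 95% confidence intervals still allow sizeable shifts, for example from -0.92 to 0.35 for Cyp51 and from -0.33 to 0.30 for Hmgcs1.

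In 3 of the 4 pairs Fdps, Fdft1, Lss and Cyp51 were lower in IL18ko. The exception was in each case the rectum stress pair, which holds the WT stress rectum array that stood apart. The share of all genes with these signs was not counted. Cyp51 differed by 0.81 in the rectum stress pair, -0.66 in the rectum control pair, -0.53 in the colon stress pair and -0.77 in the colon control pair. Lss differed by 1.04, -0.56, -0.33 and -0.34 in the same order of pairs. Fdft1 differed by 0.73, -0.30, -0.38 and -0.29, and Fdps by 0.36, -0.34, -0.36 and -0.26. The 3 remaining pairs were thus close to each other in all 4 genes on the brightest probe. They were opposite in sign to the rectum stress pair. Probe 2 of Lss and probe 3 of Cyp51 had the same signs. Probe 2 of Cyp51 did not, at -0.27 in the rectum stress pair and 0.19 in the colon stress pair. Nor did probe 2 of Fdft1, at 0.44 and 0.12 in the colon control and colon stress pairs.

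Without the rectum stress pair 4 of the 7 genes were called lower in IL18ko (limma, n = 3 pairs): Cyp51 fell by 0.65 ± 0.089 (adjusted p = 0.0278), Lss fell by 0.41 ± 0.098 (adjusted p = 0.0474), Fdft1 fell by 0.32 ± 0.070 (adjusted p = 0.0392) and Fdps fell by 0.32 ± 0.069 (adjusted p = 0.0401). In that fit 4.92% of all genes were called lower and 6.37% higher. The call on these genes therefore turns on that pair. The rectum and colon control pairs compare the same combinations of genotype and housing and may share animals, so the 3 pairs may not be independent. In a fit on tissue means, which includes the rectum stress pair, 0 of the 7 genes were called. Hmgcs1, Sqle and Insig1 behaved otherwise. On the brightest probe their IL18ko value was higher in both stress pairs and lower in both control pairs, as for 1.81% of all genes. On probe 2 this failed for Insig1, at -0.12 in the rectum stress pair, and for Hmgcs1, at -0.37 in the colon stress pair. Sqle had no other probe. The brightest probe of Insig1, for example, differed by 0.13 and 0.20 in the rectum and colon stress pairs and by -0.29 and -0.65 in the control pairs.

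**Figure D5:**
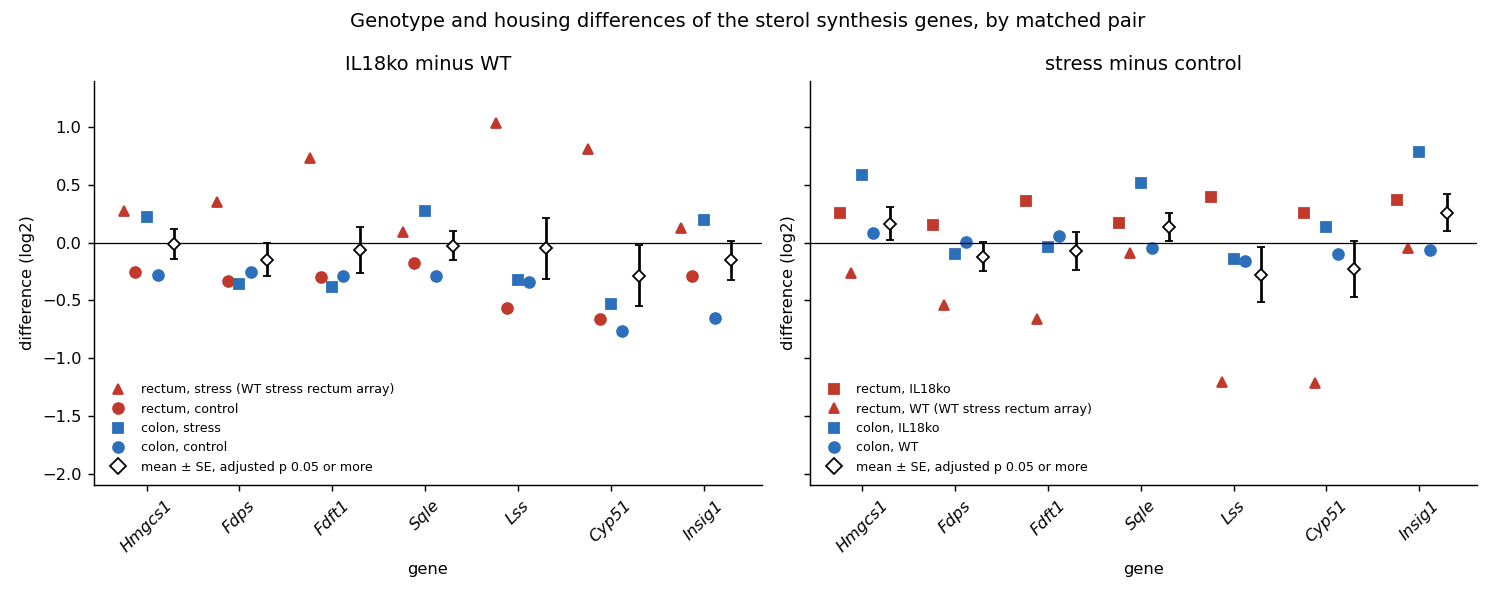
Differences of the 7 measured genes (log2) by matched pair, IL18ko minus WT at left and stress minus control at right; red symbols are rectum pairs, blue symbols colon pairs, triangles the pair that holds the WT stress rectum array, and open diamonds the mean ± SE from limma, none of them called. The triangles lie above the other pairs at left for Hmgcs1 (0.27, against 0.22 for the next), Fdps, Fdft1, Lss and Cyp51, and below them at right for all genes but Insig1.

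Isolation stress was asked through the 4 stress minus control differences. None of the 7 genes was called, nor was any other gene (0% of 12716; 3.64% had an unadjusted p under 0.05). Insig1 had the highest difference, at 0.26 ± 0.16, and Lss the lowest, at -0.28 ± 0.24, with adjusted p from 0.863 to 0.924 over the 7 genes. Their 95% confidence intervals ran from -0.13 to 0.65 and from -0.85 to 0.30. Without the rectum WT pair no gene of the 7 was called either, and the differences of Fdps, Fdft1, Lss and Cyp51 turned to 0.019, 0.13, 0.033 and 0.099.

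By genotype, the stress differences had opposite signs in rectum. All 7 genes were higher after stress in IL18ko, by 0.15 to 0.40. In WT all 7 were lower after stress, from -0.047 for Insig1 to -1.21 for Cyp51. How many of all genes had these signs in rectum was not counted. The values are from the brightest probes, and the WT sign was reversed on probe 2 of Cyp51 (0.066) and of Insig1 (0.019). In IL18ko rectum Lss differed by 0.40 and Cyp51 by 0.26, against -1.21 for both in WT rectum. In colon the IL18ko mice had higher values after stress for Insig1 (0.79), Hmgcs1 (0.59) and Sqle (0.51), against -0.065, 0.083 and -0.047 in WT colon. On probe 2 the IL18ko colon difference was 0.49 for Insig1 and -0.086 for Hmgcs1. Fdps, Fdft1 and Lss had stress differences in colon between -0.16 and 0.055 over both genotypes. Insig1, Sqle and Cyp51 were higher after stress in both IL18ko tissues and lower in both WT tissues, as were 3.88% of all genes. For Cyp51 and Insig1 this rests on the brightest probe: on probe 2 the rectum WT pair was at 0.066 and 0.019. The rectum WT values here all include the WT stress rectum array; in colon, which does not, the stress difference of Cyp51 was 0.14 in IL18ko and -0.098 in WT. With 1 pool for each combination of genotype and housing, these differences between genotypes have no replicate and were not tested.

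Neither the genotype nor the stress difference was shown to depend on the tissue. In the test of that difference none of the 7 genes was called (adjusted p = 1 for each, limma with 1 residual degree of freedom), against 0.55% of all genes for genotype and 0.181% for stress. The largest of these differences was that of Cyp51 for genotype, at 0.73 ± 0.45.

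Averaged over the 7 genes after centring each on its own mean, the levels stood at -0.18 in IL18ko stress, -0.46 in IL18ko control, -0.67 in WT stress and -0.096 in WT control rectum, against 0.34, 0.093, 0.47 and 0.50 in colon. Fdps followed this mean most closely, with a root mean square distance of 0.12 log2 units over the 8 arrays, and Lss least, at 0.28. Of 3012 other genes with at least the same range over the 8 arrays, those nearest to it were the kallikreins Klk1b8 (0.118) and Klk1b4 (0.127), the ATP-gated channel P2rx4 (0.119), Nudcd1 (0.132) and Selenos (0.141). Klk1b genes are near-identical copies of each other, and their probes may share signal. Klk1b8 was 4.01 on average in rectum, against 4.69 in colon, and P2rx4 was 2.50 in rectum, against 3.27 in colon. Only 1 of the pathway's other enzymes varied enough to be considered, and it was not among the nearest 50.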

How the data were processed

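Expression was measured on 8 Agilent 1-colour arrays. Per the file headers, the authors' background-corrected signal intensity per spot came from Feature Extraction 9.5.1.1 and is linear, with an array annotation on the build mm7. Per the labels, the authors' deposited values are each array's linear ratio over the colon array of WT control mice, and they were used as an alternative. In log2 they had a Pearson r of 0.995 to 0.99997 with the same ratios of scanner signals (18277 probes); how the authors scaled the arrays is not given in the sources used here.

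Outlier spots were removed and the rest averaged, which left 40963 of 41174 probes; 22857 of these were named, for 16309 genes, through the accession and RefSeq. The log2 intensity was set relative to the 75th percentile of its array. Probes that 4 or more arrays showed well above background (26265, for 12716 genes by the brightest probe) were tested with limma 3.58.1 in R 4.3.3 (lmFit and eBayes, prior variance following the mean level), as the mean of 4 matched differences. Dependence on tissue was tested on the 4 rectum minus colon differences with genotype and housing in the model, with 1 residual degree of freedom, so its error comes mostly from variance shared across probes. Called means an adjusted p (Benjamini-Hochberg over all tested probes) under 0.05; the 95% intervals use the same errors. Each group was 1 pool of 5 mice, so the p-values measure the spread between pairs that differ in the other factors, and the number of arrays limits precision. For genotype and stress, rectum and colon pairs may share animals, so the 4 pairs may not be independent.

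The 8 genes, the related gene groups and the cell markers were chosen with earlier results of these data known. Named are all 8 genes, the 8 largest called changes among the related groups, Srebf1, Srebf2 and Insig2, and the 5 genes nearest to the mean profile; others are marked in the text as picked afterwards. Some genes of the related groups enter the counts but are not reported here by name or plotted. The settings varied were median centring, quantile normalization, normexp background correction (offset 50, on the median signal, since the mean signal was not held), the deposited ratios, 2 other background filters, no variance trend, outlier spots kept, other designs, other probes and each pair left out. Simulated data had changes in 200 of 26265 probes, independent pairs and no array that stood apart. There the tissue test found 53% of changes of 1 log2 unit and 84% of changes of 2, with 7 false calls among 144. The test for genotype found 37% and 88% (6 false of 131 calls), and that for stress 64% and 95% (10 false of 169 calls). The real tissue test called 7110 probes, so these rates need not hold for the real data. Other tools were Python 3.11.15, pandas 2.3.3, numpy 2.4.6 and matplotlib 3.10.9.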

Additional observations from a re-analysis of the deposited data

Results flagged for a closer look

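In 4 genes the rectum stress pair lay far from the other 3 pairs in the IL18ko minus WT difference: it was 0.356 for Fdps, 0.731 for Fdft1, 1.04 for Lss and 0.815 for Cyp51 (log2), while the other pairs were all below 0. The gap to the nearest pair, as a share of the range of the 4, was above the critical value of Dixon's test at 95% in each. All 4 rest on the same pair of arrays and are not independent of each other. How many of all genes had such a gap in that pair was not counted. These values are from the brightest probes. On probe 2 of Cyp51 the rectum stress pair was at -0.27, and on probe 2 of Fdft1 both colon pairs were above 0. Probe 2 of Lss and probe 3 of Cyp51 kept the signs. In Insig1 the IL18ko control pair of the rectum minus colon difference lay apart, at -0.433, with the other 3 pairs further below 0. Of 35 sets of 4 values examined, 5 were picked out in this way. The sets reuse the same arrays, so this count cannot be set against the chance rate of about 1 in 20 for independent sets.

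The stress minus control difference was above 0 in both IL18ko tissues and below 0 in both WT tissues for Sqle, Cyp51 and Insig1. Averaged over the tissues, the IL18ko difference exceeded the WT difference by 0.413 for Sqle, 0.853 for Cyp51 and 0.635 for Insig1. For Cyp51 the excess was 1.47 in rectum, where it includes the WT stress array that stood apart, and 0.233 in colon. On probe 2 the rectum WT difference was above 0 for Cyp51, at 0.066, and for Insig1, at 0.019. Seen from the other side, the IL18ko minus WT difference was above 0 in both stress pairs and below 0 in both control pairs for Hmgcs1, Sqle and Insig1, with the stress difference exceeding the control difference by 0.516 for Hmgcs1 and by the values given above for Sqle and Insig1. On probe 2 that pattern failed for Hmgcs1, at -0.37 in the colon stress pair, and for Insig1, at -0.12 in the rectum stress pair. None of the differences in these patterns was tested, since there was 1 pool for each combination of genotype and housing.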

How the results depend on the processing

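All directions of the 7 genes between rectum and colon held in all 14 settings and in the other probes. Under other settings 85 values of that comparison kept their side of the threshold and 12 lost it; 7110 probes were called in all, and 3480 to 10575 with 1 pair left out, while the number of the 7 genes called lay between 2 and 6. For genotype 13 probes were called, 7 when above background on 8 of 8 arrays, 32 with 8 independent arrays, 3043 with tissue means, 5316 with mouse group as random block, and 3 to 2575 with 1 pair left out, where 0 to 4 of the 7 genes were called. For stress 0 probes were called, and 23 with tissue means. For genotype by tissue 113 were called, and 199 without the variance trend, 30 with the deposited ratios and 46 when above background on all arrays; for stress by tissue 50 were called, and 93, 8 and 11 in the same settings. The tissue-mean and block fits share variance over few degrees of freedom; the cause of their higher counts was not tested. Several uncalled genotype and stress differences changed sign. That for genotype turned to 0.086 (Hmgcs1) and 0.022 (Sqle) under quantile normalization, to 0.044 (Hmgcs1) under normexp, and to 0.021 (Hmgcs1) and 0.28 (Fdft1) with the additional probe; the additional probe turned the stress difference to -0.15 (Hmgcs1), 0.12 (Fdft1) and 0.16 (Cyp51). The genotype-by-tissue difference of Sqle turned to 0.112 under quantile normalization and 0.110 with the deposited ratios. With 1 pair left out, genotype differences ranged from -0.106 to 0.0787 for Hmgcs1, -0.324 to 0.0479 for Fdft1, -0.124 to 0.0629 for Sqle, -0.409 to 0.125 for Lss and -0.270 to 0.0145 for Insig1, and stress differences from -0.212 to 0.0189 for Fdps, -0.216 to 0.127 for Fdft1, -0.502 to 0.033 for Lss and -0.392 to 0.0986 for Cyp51. All 13 probes were well above background on 8 of 8 arrays.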
